A study of Mus musculus with 12 samples.

Results

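The genes described here are Vcam1, Icam1, Alcam, Mcam, Ncam1, Cadm1 and Gpm6a, all of which encode proteins of the cell surface. They were taken by symbol from the table of mRNA counts, in which 7 of 7 were found among 55228 genes, and all 7 passed the filter, a count of 1 or more in 3 or more libraries, as did 23853 genes in all. Their transcripts were compared between the proepicardium (PE), the cell cluster beside the venous pole of the heart tube, and the embryonic epicardium (EE) that grows from it over the heart. PE was cut out by hand from embryos at E9.5, and EE was obtained by FACS at E10.5, with 3 libraries of each and at least 5 embryos in every sample. Embryos of both stages came from the line that the labels call Wt1Cre-EGFP and the paper calls Wt1GFP/+. This line has a reporter allele at the Wt1 locus, and no treatment was given. The paper does not say whether every pooled PE embryo carried the allele. The gate used for the sort is not given in the sources used here. Stage and way of collection change together, so these cannot be told apart in any difference given below.

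Vcam1, Icam1, Alcam, Mcam, Ncam1 and Cadm1 belong to the immunoglobulin superfamily, whose members hold cells together by binding partners on the neighbouring cell or in the matrix. Vcam1 is bound by the integrin made of the Itga4 and Itgb1 chains, and mouse embryos that lack Vcam1 or Itga4 fail to keep an epicardium on the heart. Icam1 is bound by integrins of leukocytes, and Vcam1 and Icam1 are known targets of NF-kB in activated endothelium. Alcam (CD166) binds itself and the leukocyte receptor Cd6, Ncam1 binds itself and can carry polysialic acid, Cadm1 binds itself and Crtam, and Mcam (CD146) is a surface protein of endothelium, pericytes and smooth muscle that can bind the laminin chain Lama4 and Wnt5a. Gpm6a is no immunoglobulin protein. It is a proteolipid with several membrane spans, best known from neurons, where it promotes filopodia and neurite growth.

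The libraries held 18464362 to 25814015 counts, and the labelled tissue was checked against its markers. Of 16 epicardial markers 12 were higher in EE, with a share of the reads of 0.157% to 0.187% in PE but 0.678% to 0.878% in EE. PE also held liver transcripts, as all 15 hepatoblast markers were higher there, with 0.339% to 0.642% of the counts against 0.0042% to 0.00965% in EE. Cardiomyocyte markers (8 of 13 higher in EE) made up 0.461% to 0.719% of PE libraries but 0.904% to 1.43% of EE libraries. Genes induced by stress and dissociation also stood higher in EE, 10 of 16 listed. EE3 had the fewest genes with a count, 18763, against 22186 in EE1 and 23335 in EE2.

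The bases before the start sites of Icam1 and Gpm6a, the genes with the largest fall and the largest rise among the 7, are shown so that the contrast in their composition can be seen. They are RefSeq sequence of GRCm38.p6, 250 bases up to the start site, and capitals mark every match to the motifs searched. Icam1 lies on the plus strand of chromosome 9, with the bases shown at chr9:21015690-21015939. Gpm6a lies on the plus strand of chromosome 8 and has 2 start sites in RefSeq, with the bases shown at chr8:54779184-54779433 and at chr8:54954478-54954727.
Icam1: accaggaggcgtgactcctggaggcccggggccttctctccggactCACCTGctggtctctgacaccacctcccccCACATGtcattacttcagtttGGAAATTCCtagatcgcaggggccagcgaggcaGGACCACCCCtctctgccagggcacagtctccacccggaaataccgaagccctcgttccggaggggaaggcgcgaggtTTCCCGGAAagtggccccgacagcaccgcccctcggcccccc
Gpm6a, start site 1: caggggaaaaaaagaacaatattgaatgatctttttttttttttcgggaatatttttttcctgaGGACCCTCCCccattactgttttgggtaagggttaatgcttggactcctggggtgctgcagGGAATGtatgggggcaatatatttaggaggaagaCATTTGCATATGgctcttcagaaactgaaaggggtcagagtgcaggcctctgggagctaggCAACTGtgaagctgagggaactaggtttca
Gpm6a, start site 2: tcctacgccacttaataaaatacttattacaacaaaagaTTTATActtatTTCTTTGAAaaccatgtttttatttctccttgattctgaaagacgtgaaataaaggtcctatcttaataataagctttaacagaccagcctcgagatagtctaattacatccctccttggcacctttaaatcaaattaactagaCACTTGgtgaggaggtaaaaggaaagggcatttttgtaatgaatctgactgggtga
The Icam1 bases were rich in G and C, with 65.2% of these letters and 15 CG pairs, while those of Gpm6a held 44.4% and 1 CG pair at start site 1 and 33.6% and 3 CG pairs at start site 2. Over the first listed start site of 27025 genes the median was 52% and 6 CG pairs. The motifs searched were a loose kB site of NF-kB (3 G, any 5 bases, then 2 C), the Tead motif GGAATG, the Gata motif GATAAG, the E-box CANNTG and the TATA box TATAAA, each on both strands. A pair of kB half-sites (GGAANTTCC) and the Stat motif (TTCNNNGAA) were added after the Icam1 bases had been read. Their matches in Icam1 could thus be seen before the search, and their rarity among promoters is no test for Icam1. Icam1 had 1 match to the loose kB site, which 45.4% of the 27025 promoters hold, 1 to GGAANTTCC, which 0.844% hold, 1 to TTCNNNGAA, which 7.18% hold, and 2 to CANNTG, which 66.0% hold. Gpm6a had at start site 1 a match to the loose kB site, 1 to GGAATG, which 12.6% hold, and 3 to CANNTG, and at start site 2 a match each to TTCNNNGAA, CANNTG and TATAAA, which 12.97% hold. GATAAG, held by 6.60%, had no match in these bases. Promoters of Alcam and Mcam were also found in the RefSeq table (1 start site each), and those of Vcam1, Ncam1 and Cadm1 were not used here. Mcam, which was higher in EE as Gpm6a was, had 73.6% G and C and 25 CG pairs. It had 7 matches to the loose kB site, some of them overlapping. Alcam, which did not pass, had 69.2% and 22 CG pairs. Both thus held more G and C than Icam1, so composition did not follow the direction of the difference among these genes.

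Of the 7 genes, Gpm6a and Mcam were higher in EE, Icam1 and Cadm1 were higher in PE, and Vcam1, Alcam and Ncam1 did not pass the test. Counts were normalized with TMM factors and compared with edgeR's quasi-likelihood test over all 23853 genes, and calls required a fold change over 1.5 with a p below 0.05 after Benjamini-Hochberg adjustment. Every log2 fold change is EE over PE, and levels are in CPM, with the TMM factor in the library size. By this rule 9.38% of all genes were called, 4.86% as higher in PE and 4.52% as higher in EE, and among the 9081 genes at 10 CPM or more in the higher stage 16.1% were called. The PE and EE libraries did not overlap for 4 of the 7, against 31.9% of all genes. The median log2 fold change of the 7 was -0.71 and that of all genes -0.06. The libraries are bulk RNA, in which fewer cells of a type and less RNA per cell cannot be told apart.

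**Figure D1:**
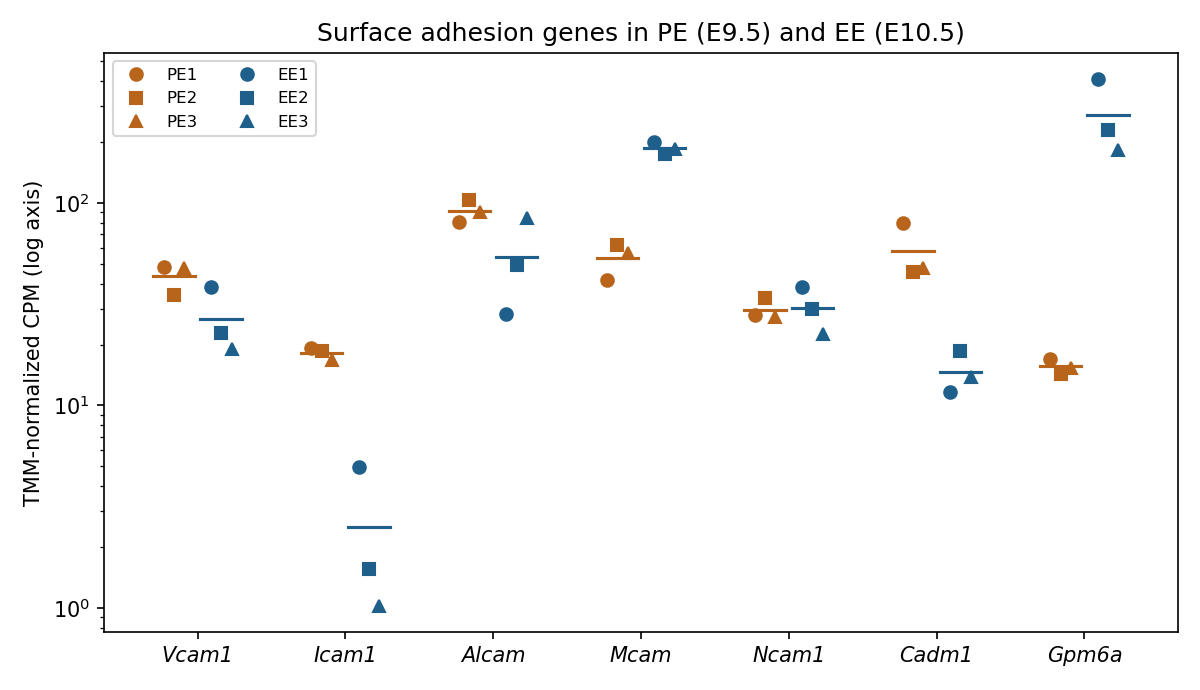
TMM-normalized CPM (log axis) of the 7 genes in the 3 PE libraries (E9.5, brown) and the 3 EE libraries (E10.5, blue). Marker shapes give the replicate number and lines the stage mean, and the stages are apart for Icam1, Mcam, Cadm1 and Gpm6a and overlap for Vcam1, Alcam and Ncam1.

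Gpm6a showed the largest difference. In the order PE1, PE2, PE3 the level was 17.0, 14.4 and 15.4 CPM, and in the order EE1, EE2, EE3 it was 408.3, 229.7 and 181.8 CPM. The PE libraries lay close together while the highest EE library was 2.25 times the lowest, and the lowest EE library was still far above every PE library. The log2 fold change was 4.13 (standard error 0.322, 95% interval 3.41 to 4.85, adjusted p = 0.000125 from edgeR), a 17.5-fold rise, which is larger in size than that of 95.9% of the genes tested. In the GENCODE annotation of GRCm38 the gene lies on chromosome 8 from 54954843 to 55060871, and no other gene overlaps its exons there. RefSeq start site 1 lies upstream of this interval, so an exon at that site was not checked for overlap or counted in the exon length. As Gpm6a is best known from neurons, neural markers were looked at in the same libraries. Of 11 tested neural and neural crest markers 1, the beta-tubulin gene Tubb3, was higher in EE and 1, the neurofilament gene Nefm, was higher in PE. The summed share of these markers was 0.00492% to 0.00779% over the PE libraries, against 0.0162% to 0.0329% over the EE libraries. Most of the counts in this sum were Tubb3 in every library (3701, 6597 and 5821 counts in EE1, EE2 and EE3). The median log2 fold change of the 11 tested markers was -1.44, and 9 of them did not pass. Tubb3 averaged 42.1 CPM in PE (SD 15.2, n = 3), against 262 CPM in EE (SD 89.95, n = 3). The neural crest gene Foxd3 had no count in any library, and Sox10 was at 0.0592 CPM on average in EE. The part of neural cells in the rise of Gpm6a was not tested.

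Mcam stood at 41.8, 61.9 and 56.5 CPM in PE1, PE2 and PE3, against 201, 175.5 and 184 CPM in EE1, EE2 and EE3. The EE libraries differed by a factor of 1.15, the smallest spread of the 7 genes in EE, and all lay above PE. Mcam thus rose by a log2 fold change of 1.81 (standard error 0.205, 95% interval 1.35 to 2.27, adjusted p = 0.000751 from edgeR), a 3.50-fold rise. Mcam lies on chromosome 9 from 44134469 to 44142727, and Gm10687 on the other strand overlaps 0.507% of its exon bases, with 5 to 47 counts per library. Mcam is a protein of vascular cells, and vascular markers were looked at beside it. Of 13 endothelial markers 8 were higher in PE and 1, the natriuretic peptide receptor gene Npr3, was higher in EE, and the summed share of the list was 0.0722% to 0.0729% in PE, against 0.0276% to 0.0442% in EE. Pecam1 fell by 2.78 and Cdh5, the cadherin of endothelium, by 2.58 on the log2 scale. Tek had the highest mean of the list in both stages, 161 CPM in PE and 216 CPM in EE. It did not pass (log2 fold change 0.42). Cldn5, called as higher in PE, had no count in EE and passed the filter only through the PE libraries. Of 8 smooth muscle and pericyte markers Tagln rose (log2 fold change 2.08), Notch3 fell by 1.60 on the log2 scale and 6 did not pass. Their summed share was 0.164% to 0.224% in PE, against 0.128% to 0.217% in EE. Acta2, which did not pass (log2 fold change -0.06), gave most of the counts in this sum in every library. The share thus says little of the other markers. What part other cell types have in the rise of Mcam was not tested.

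**Figure D2:**
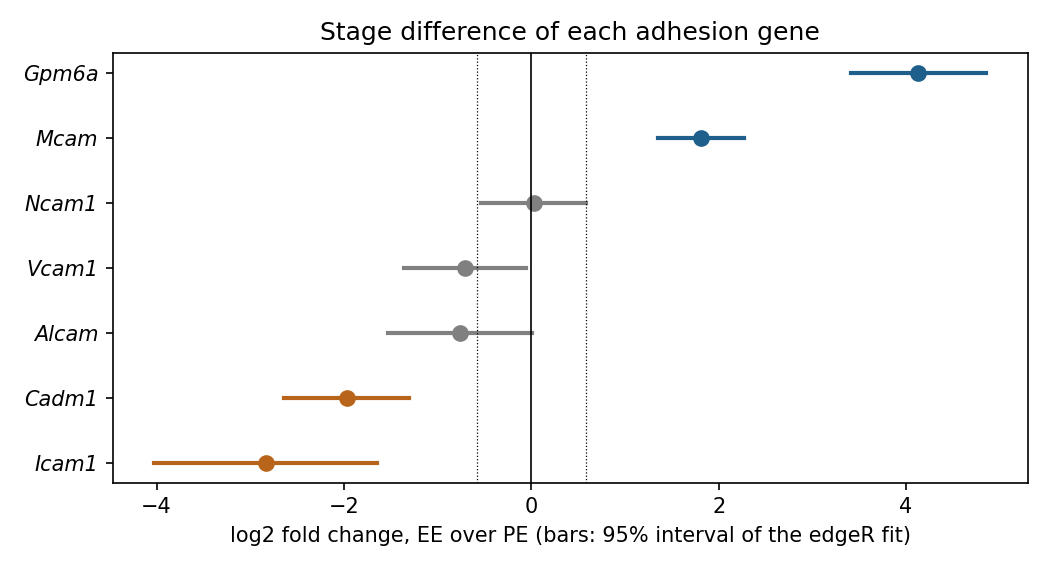
Log2 fold change of each gene, EE over PE, with the 95% interval of the edgeR fit. Blue marks genes higher in EE, brown genes higher in PE and grey genes that did not pass, the dotted lines are the 1.5-fold limits, and the order runs from Icam1 at -2.84 to Gpm6a at 4.13.

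In the order PE1, PE2, PE3 the level of Icam1 was 19.2, 18.6 and 16.8 CPM, and in the order EE1, EE2, EE3 it was 4.99, 1.55 and 1.03 CPM. These are 476, 477 and 447 counts in PE and 115, 35 and 18 counts in EE, so that EE1 held most of the Icam1 reads of its stage. For Icam1 the log2 fold change came to -2.84 (standard error 0.530, 95% interval -4.02 to -1.65, adjusted p = 0.0100 from edgeR), which makes PE 7.14-fold higher. The call was lost without EE2 (log2 fold change -2.58, adjusted p = 0.0511), and without EE1, the EE library with the most Icam1, the log2 fold change was -3.80. The gene lies on chromosome 9 from 21015985 to 21028817, and Gm47079, a gene of the other strand with 1 count in all 6 libraries together, covers 11.7% of the bases in its exons. Of the 13 endothelial markers looked at for Mcam, 8 were higher in PE, 1 was higher in EE and 4 did not pass. Their part in the fall of Icam1 was not tested. Of 11 macrophage and leukocyte markers Csf1r rose (log2 fold change 2.42), Mrc1 fell by 1.71 on the log2 scale and 9 did not pass. The list had a summed share of 0.0017% to 0.0063% in PE, against 0.00303% to 0.00763% in EE, and Ptprc, the common leukocyte antigen, had 0 to 35 counts per library. Their part was not tested either.

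Cadm1 stood at 79.6, 45.7 and 47.6 CPM in PE1, PE2 and PE3, against 11.6, 18.6 and 13.8 CPM in EE1, EE2 and EE3. PE1 was high among the PE libraries, and the lowest PE library lay above the highest EE library. Between the stages Cadm1 differed by a log2 fold change of -1.97 (standard error 0.297, 95% interval -2.64 to -1.31, adjusted p = 0.00344 from edgeR), which makes PE 3.92-fold higher. PE1 was also the library with the most hepatoblast transcripts, at 0.642% of its counts against 0.339% in PE2 and 0.394% in PE3. The part of liver cells in the level of Cadm1 was not tested. Cadm1 lies on chromosome 9 from 47530173 to 47857637 and overlaps no other gene in its exons.

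In the order PE1, PE2, PE3 the level of Vcam1 was 48.5, 35.3 and 47.6 CPM, and in the order EE1, EE2, EE3 it was 38.4, 22.9 and 19.1 CPM. EE1 lay within the range of PE, while EE2 and EE3 were below every PE library. The log2 fold change was -0.71 (standard error 0.292, 95% interval -1.36 to -0.05, adjusted p = 0.166 from edgeR), so the gene did not pass the test. The interval runs from a difference near 0 to a level in EE well under that in PE. Without EE1 the log2 fold change was -1.06 and the gene was called (adjusted p = 0.0439). Vcam1 lies on chromosome 3 from 116109949 to 116129688, and Gm43109, which overlaps 0.688% of its exon bases on the other strand, had no count.

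Alcam stood at 80.7, 104 and 90.4 CPM in PE1, PE2 and PE3, against 28.4, 49.5 and 84.2 CPM in EE1, EE2 and EE3. Here EE3 reached the level of PE, whereas EE1 and EE2 were below every PE library. For Alcam the log2 fold change came to -0.76 (standard error 0.344, 95% interval -1.53 to 0.01, adjusted p = 0.203 from edgeR). Without EE3 it was -1.23 and Alcam was called (adjusted p = 0.0259). The highest EE library was 2.97 times the lowest, against a median of 1.52 times over the genes at 10 CPM or more in the higher stage. Alcam lies on chromosome 16 from 52248996 to 52454074 with no overlapping gene in its exons.

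In the order PE1, PE2, PE3 the level of Ncam1 was 28.0, 33.8 and 27.4 CPM, and in the order EE1, EE2, EE3 it was 38.4, 29.9 and 22.5 CPM. The EE libraries spanned the whole range of PE. Its log2 fold change was 0.03 (standard error 0.250, 95% interval -0.53 to 0.59, adjusted p = 0.964 from edgeR), and the interval leaves room for a difference of up to about the 1.5-fold limit in either direction. The sign of this fold change turned under 6 of the 13 alternatives. Ncam1 lies on chromosome 9 from 49502136 to 49798925, and Gm11149 overlaps 4.81% of its exon bases on the other strand, with 0 to 6 counts in 5 libraries and 33 counts in EE3.

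The EE libraries were not high or low for the same genes. EE1 had the highest CPM of its stage for Vcam1, Icam1, Mcam, Ncam1 and Gpm6a and the lowest for Alcam and Cadm1. EE3 had the lowest for Vcam1, Icam1, Ncam1 and Gpm6a and the highest for Alcam. EE1 also had the most cardiomyocyte marker counts of its stage (1.43%, against 1.24% in EE2 and 0.904% in EE3) and the most immediate early and dissociation stress counts (0.150%, against 0.0558% and 0.0945%). The part of either in the spread between the EE libraries was not tested.

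Levels were also compared between genes, as CPM per kilobase of exon. In PE, Mcam was highest at 15.9 ± 3.11 CPM per kb (SD, n = 3), followed by Alcam at 12.9 ± 1.63, Cadm1 at 5.52 ± 1.82, Vcam1 at 4.94 ± 0.832, Gpm6a at 4.85 ± 0.412, Icam1 at 4.17 ± 0.291 and Ncam1 at 3.43 ± 0.406 CPM per kb. In EE the order was Gpm6a at 85.0 ± 37.1, Mcam at 55.8 ± 3.86, Alcam at 7.59 ± 3.96, Ncam1 at 3.49 ± 0.918, Vcam1 at 3.02 ± 1.15, Cadm1 at 1.41 ± 0.341 and Icam1 at 0.578 ± 0.493 CPM per kb. In PE the neighbours Alcam and Cadm1, and Gpm6a and Icam1, were apart in all libraries, and the other neighbours in the order overlapped. In EE Mcam and Alcam, and Vcam1 and Cadm1, were apart, and the others overlapped. Gpm6a made up 8.27% to 10.6% of the summed CPM per kb of the 7 genes in PE and 43.6% to 62.9% in EE. Mcam made up 25.03% to 34.2% in PE and 29.7% to 42.4% in EE. Alcam made up 22.8% to 27.0% in PE and 1.97% to 9.12% in EE. Mcam and Alcam thus had the highest shares in every PE library, and Gpm6a and Mcam in every EE library.

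**Figure D3:**
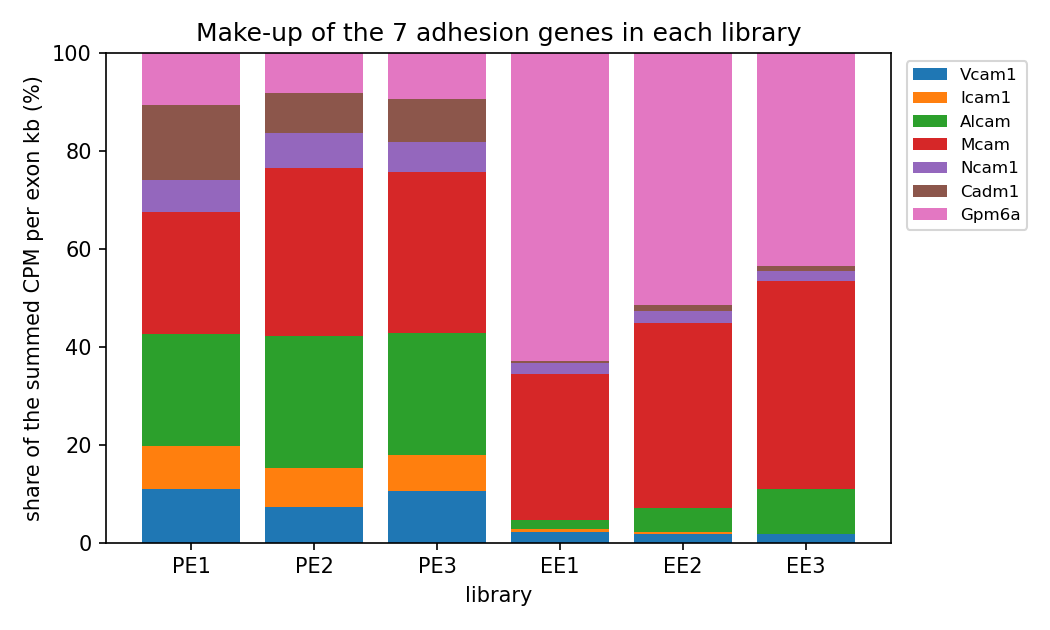
Share of each gene in the summed CPM per exon kilobase of the 7 genes, for each library (bars add up to 100%). Gpm6a takes 8.27% to 10.6% in the PE libraries and 43.6% to 62.9% in the EE libraries.

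The receptors and other partners of these genes were looked at in the same fit. Of 7 integrin chains that bind Vcam1 or Icam1, 1 rose, 1 fell and 5 did not pass (median log2 fold change -0.03). Itga4, the alpha chain of the Vcam1 receptor, was at 29.8, 50.1 and 61.7 CPM in PE1, PE2 and PE3 and at 173, 289 and 254 CPM in EE1, EE2 and EE3. Its rise was 2.34 on the log2 scale (edgeR, adjusted p = 0.00165, standard error 0.303), with no overlap between the stages. Itgb1, the beta chain that pairs with it and with many other alpha chains, averaged 288 CPM in PE (SD 32.3, n = 3), against 281 CPM in EE (SD 8.99, n = 3), and did not pass (log2 fold change -0.03, adjusted p = 0.933 from edgeR). The sign of Itgb1 turned without PE2. Itga9, whose product also binds Vcam1, fell by 2.27 on the log2 scale (adjusted p = 0.00584). The alpha and beta chains of the Icam1 receptors of leukocytes were rare, Itgal at 3 to 60 counts, Itgam at 0 to 9 counts and Itgb2 at 16 to 154 counts per library, and none of these passed.

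Of 8 further partners 3 fell, 1 rose and 4 did not pass (median log2 fold change -1.62). Wnt5a, a secreted Wnt protein that can act through Mcam, rose from 5.23 ± 0.211 CPM (SD, n = 3) to 51.7 ± 11.1 CPM (SD, n = 3), by 3.30 on the log2 scale (edgeR, adjusted p = 0.000125). Lama4, the laminin chain bound by Mcam, had a log2 fold change of 1.04 and did not pass (adjusted p = 0.0846). Fgfr1, an Fgf receptor that Ncam1 can engage, fell by 1.61 on the log2 scale. Gdnf, a ligand for which Ncam1 can serve as a receptor, had 16 to 23 counts in PE and 0 to 1 counts in EE. Its call, as higher in PE, was lost with each library left out except EE3, and also in the fit blocked by replicate number. Cd6, the leukocyte receptor of Alcam, had 19 to 22 counts per library in PE but 0 counts in EE. It passed the filter only through the PE libraries, so its place among the 3 that fell was set by the filter as well as the test.

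Among the 33 tested other genes of the immunoglobulin family of adhesion proteins, 5 fell, 4 rose and 24 did not pass, with a median log2 fold change of -0.74. Those higher in PE with the highest levels were Emb, the embigin gene, which fell by 2.88, Esam, an adhesion protein of endothelium, which fell by 2.27, Pecam1, given above, and Mpzl2, which fell by 3.56 on the log2 scale (log2 fold change -4.46 without EE2). Those higher in EE with the highest levels were Nectin2 and Jam3, proteins of cell junctions, with log2 fold changes of 0.92 and 1.13. The call of Nectin2 was lost without PE2, PE3 or EE2 (adjusted p = 0.0943, 0.0989 and 0.0627). Gpm6b, a proteolipid relative of Gpm6a, averaged 4.66 CPM in PE (SD 0.984, n = 3), against 4.10 CPM in EE (SD 1.58, n = 3), and did not pass (edgeR, log2 fold change -0.18, adjusted p = 0.833).

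**Figure D4:**
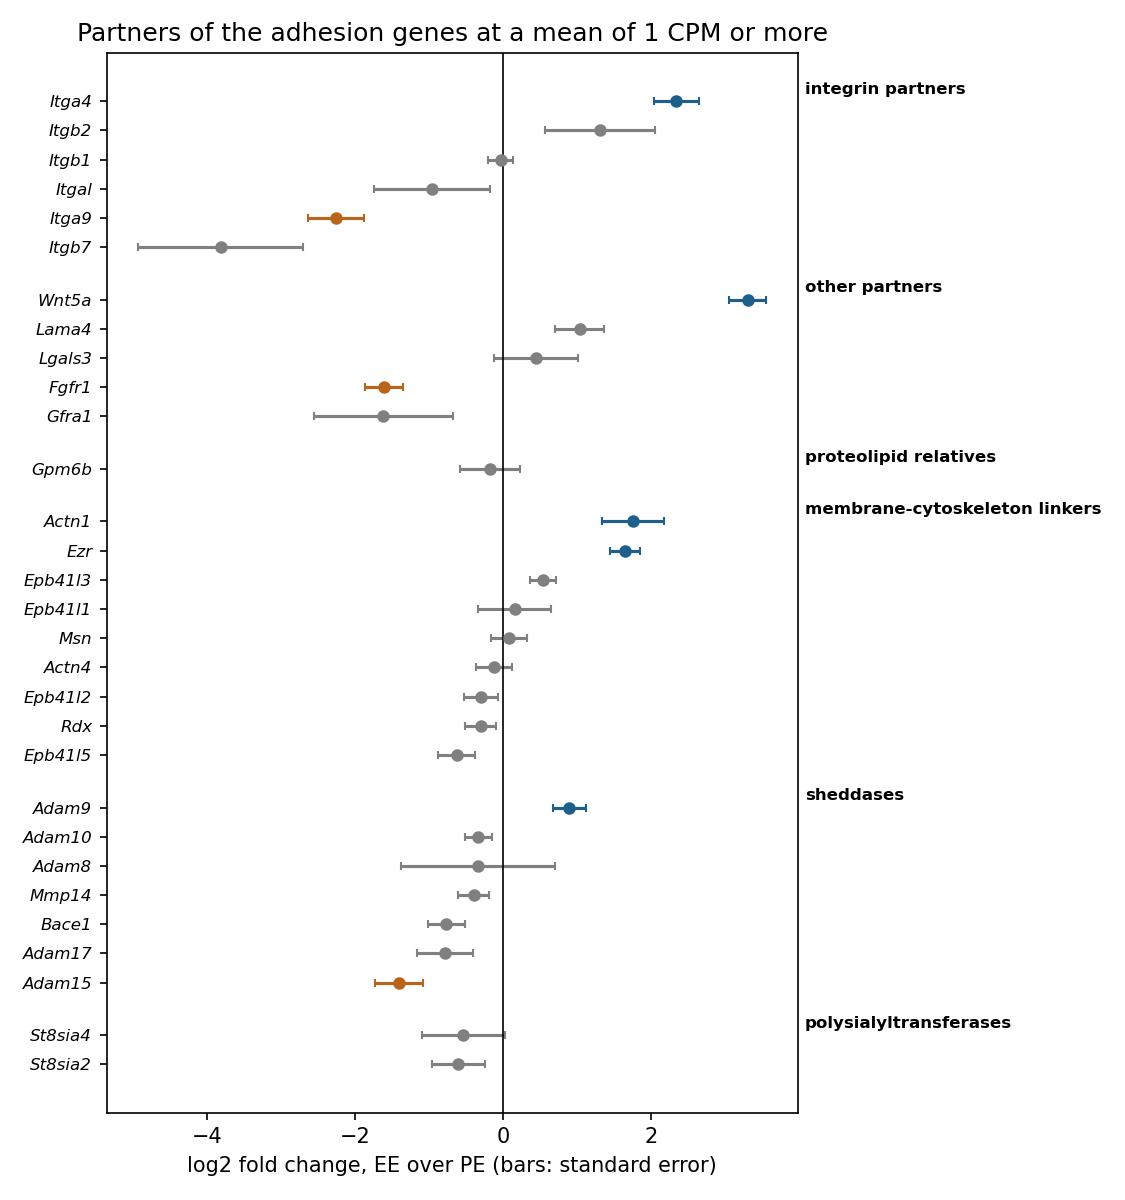
Log2 fold change, EE over PE, with its standard error for 30 partner genes at a mean of 1 CPM or more, grouped by role. Blue marks genes higher in EE, brown genes higher in PE and grey genes that did not pass, with Itga4 at 2.34 and Wnt5a at 3.30.

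Genes for proteins that link, cut or modify these surface molecules came next. Of 9 genes that tie membrane proteins to actin 2 rose and 7 did not pass. Ezr, the ezrin gene, rose by 1.64 on the log2 scale, from 371.5 ± 30.4 CPM to 1162 ± 269.98 CPM (SD, n = 3 each, edgeR adjusted p = 0.00131). Actn1, an actinin gene, was called at 1.75 (adjusted p = 0.0297), though not once PE1, PE2, PE3 or EE2 was left out, and without EE3 its log2 fold change was 1.12. The ezrin relatives Msn and Rdx had log2 fold changes of 0.08 and -0.31 and did not pass. Of 7 membrane proteases Adam9 was higher in EE and Adam15 was higher in PE, with log2 fold changes of 0.90 and -1.41. The call of Adam9 was kept only without EE3, and that of Adam15 likewise, among the 6 fits that leave out a library. The main sheddases Adam10 and Adam17 had log2 fold changes of -0.34 and -0.78 and did not pass (adjusted p = 0.299 and 0.233). St8sia2 and St8sia4, which put polysialic acid on Ncam1, did not pass either (log2 fold changes -0.61 and -0.54).

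Of 17 tested NF-kB and cytokine genes 1 fell, 1 rose and 15 did not pass, with a median log2 fold change of -0.38. Ccl2, a chemokine gene, had 9, 0 and 1 counts in PE and 1052, 851 and 1682 counts in EE, a log2 fold change of 8.78 that was 11.25 without PE1. Il1r1, the receptor of interleukin 1, fell from 34.8 ± 0.652 CPM to 12.98 ± 1.87 CPM, by 1.42 on the log2 scale (adjusted p = 0.00449). Among the NF-kB subunits Rela averaged 46.0 ± 4.01 CPM at E9.5 and 55.8 ± 24.9 CPM at E10.5 (SD, n = 3 each), Nfkb1 21.4 ± 2.29 and 15.7 ± 2.97 CPM, and neither passed. Icam1 and Ccl2, which NF-kB can switch on, differed in opposite directions between the stages, and the part of NF-kB in either difference was not tested.

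The 3 genes most like each of the 7 were found among 8533 other genes at a mean of 10 CPM or more. Likeness was the root mean square difference between profiles of log2(CPM + 1) over the 6 libraries, each centred on its own mean. Nearest to Vcam1 were Bend5 (0.0998), Icam2 (0.154) and Iqcc (0.156). Icam2, another ligand of leukocyte integrins, averaged 44.2 CPM in PE (SD 6.85, n = 3), against 25.3 CPM in EE (SD 6.07, n = 3), and did not pass (log2 fold change -0.81, adjusted p = 0.0733). Nearest to Icam1 were Akr1c13 (0.170), Susd4 (0.261) and Cd34 (0.346), the last a surface sialomucin of endothelium and progenitor cells. Nearest to Gpm6a were 9930012K11Rik (0.225), Msln (0.264), which encodes mesothelin of the mesothelial surface, and Ch25h (0.309). For Mcam these were Celf2 (0.120), Tmem108 (0.121) and Pdgfd (0.127), and for Cadm1 Gna14 (0.209), Unc119b (0.231) and Lck (0.236). Alcam was nearest to Trabd2b (0.161), Dact1 (0.190) and Xxylt1 (0.200), and Ncam1 to Lima1 (0.0478), Slc39a7 (0.0527) and Gorasp1 (0.0529). The 3 genes nearest to Alcam had their highest EE level in EE3 as Alcam did, which the choice by likeness favours. Among the 7 themselves the closest pair was Vcam1 and Ncam1 (0.451) and the farthest Icam1 and Gpm6a (3.29).

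The calls of Gpm6a, Mcam and Cadm1 held under all 13 alternatives and that of Icam1 under 12. Across these the log2 fold change ran from 3.72 to 4.36 for Gpm6a, from 1.66 to 1.93 for Mcam, from -2.22 to -1.67 for Cadm1 and from -3.80 to -2.47 for Icam1. Vcam1 was called under 1 alternative and Alcam under 2, and Ncam1 under 0.

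**Figure D5:**
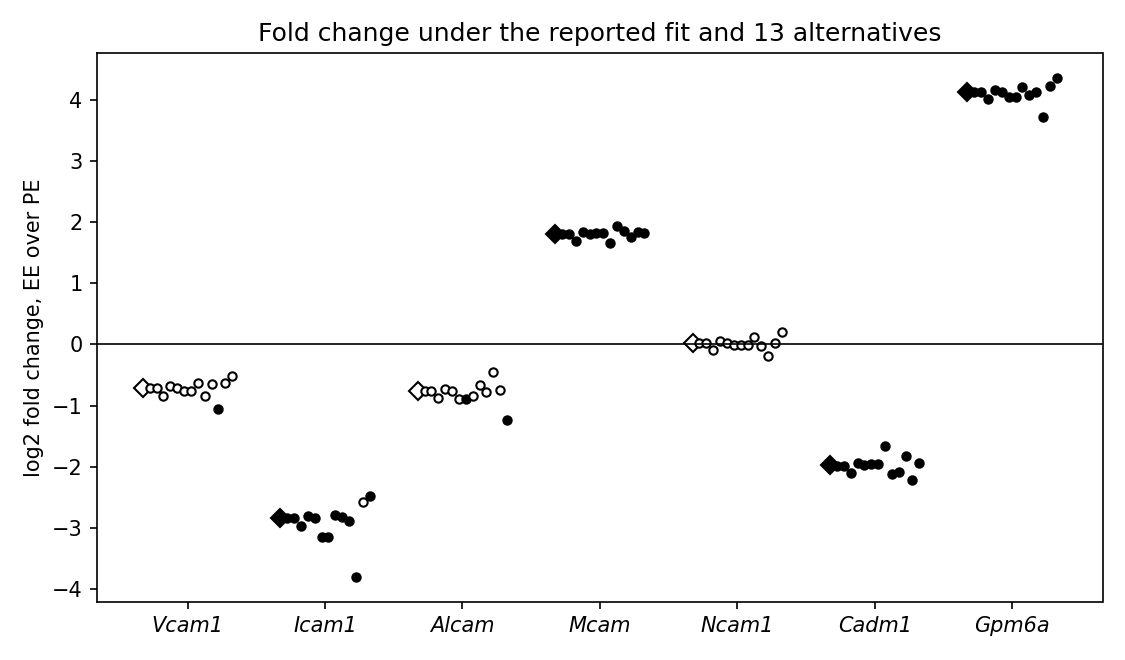
Log2 fold change, EE over PE, of the 7 genes in the reported fit (diamond) and under 13 alternatives (circles, in the order DESeq2, RLE factors, library size alone, filterByExpr, no filter, limma, replicate block, then without PE1, PE2, PE3, EE1, EE2 and EE3). Filled symbols passed the limits, and Gpm6a, Mcam and Cadm1 are filled throughout.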

How the data were processed

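Messenger RNA was sequenced from 3 PE and 3 EE libraries made with the SMART-Seq v4 and Nextera XT kits, which do not mark the strand, so reads of genes that overlap on opposite strands cannot be told apart. The authors deposited whole-number counts per gene symbol. For these the paper names RSEM on the mm10 transcriptome, while STAR, featureCounts and Trim Galore 0.4.3.1 stand in the submitters' processing notes. The EE columns are headed EPDC (epicardium-derived cells) with a number, taken here as the number of the EE sample. Per the paper tissue was pooled over embryos, and the labels call the samples of a stage distinct without giving their litters, so p-values measure the spread between these pools. The small RNA table was not used here.

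TMM normalization and the quasi-likelihood test were run in edgeR 4.0.16 (R 4.3.3), with the paper's filter and limits. Standard errors were taken from the log2 fold change and the F value. The alternatives used DESeq2 1.42.0 and limma 3.58.1. The code was checked on simulated counts of known fold change. Positions, exon lengths and overlaps are those of GENCODE for GRCm38, and promoters those of RefSeq. Figures were drawn with Python 3.11.15 and matplotlib 3.10.9.

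The 7 genes, the gene lists and the tests were chosen with earlier results of these data known, so no test over a list was made. Some genes of the lists are not reported here. The text names all 7 genes, Itga4 and Itgb1, up to 6 called genes of each partner list by level in the higher stage, and the 3 genes nearest in profile. Other genes named from the lists (Tubb3, Nefm, Npr3, Cdh5, Tek, Cldn5, Tagln, Notch3, Acta2, Csf1r, Mrc1, Ptprc, Foxd3, Sox10 and partners that did not pass) were chosen after their values were seen.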

Additional observations from a re-analysis of the deposited data

How the results depend on the processing

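With DESeq2 3610 genes were called in place of 2237 (1894 higher in PE and 1716 higher in EE, against 1159 and 1078), and leaving out 1 library gave 1064 to 2260, with 1065 without PE2 and 1064 without PE3. Library size alone in place of TMM moved the median log2 fold change of all genes from -0.06 to -0.18 and the numbers called to 1500 and 927. With each library left out in turn, 3 to 5 of the 7 genes were called (3 without EE2, 5 without EE1 or EE3), 1 to 3 of them higher in PE and 2 higher in EE. The log2 fold change then ran from -3.80 to -2.47 for Icam1, from -1.06 to -0.52 for Vcam1, from -1.23 to -0.45 for Alcam, from -0.18 to 0.20 for Ncam1 and from -0.10 to 0.062 for Itgb1, and the cause was not tested. Ncam1 turned to -0.092 with library size alone, to -0.0025 with limma on log2(normalized count + 1) and to -0.0026 with the replicate block. With the replicate number as a block 1382 genes were higher in PE and 1140 higher in EE, and Alcam was called (log2 fold change -0.90, adjusted p = 0.0486). The numbers were not taken to pair the samples. The deviations of same-numbered libraries from their stage means correlated at -0.22, 0.12 and -0.10, and no library correlated best with its own number. Of the alternatives for the partner genes named, 220 kept direction and call, 23 kept the direction only and 1 reversed it (Itgb1 without PE2). Cd6 gave no value without PE1, PE2 or PE3, since it then failed the filter. Among the 7 genes Icam1 had the fewest counts, 18 to 115 per EE library.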
